A study of Mus musculus with 17 samples.

Results

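The SLAM family receptors described here are the 5 genes Slamf1, Slamf6, Slamf7, Cd48 and Ly9, chosen by gene symbol from the 22180 genes that could be tested, and all 5 were measured. Their RNA was followed through 9 mouse cell populations isolated by cell sorting and measured on 17 Affymetrix Mouse Gene 2.0 ST arrays. The populations were early innate lymphoid progenitors (EILP), natural killer cells (NK), common lymphoid progenitors (CLP), DN3 thymocytes, early thymic progenitors (ETP), common myeloid progenitors with and without Flt3 (flt3+ CMP and flt3- CMP), lymphoid-primed multipotent progenitors (LMPP) and hematopoietic stem cells (HSC). DN3 and ETP came from thymus and the others from bone marrow. EILP had 1 array and every other population had 2. Per the labels, the series design covers chimeric mice: marrow of TCF-1 GFP reporter donors was put into lethally irradiated B6 CD45.1 recipients (900 rads), and cells were pooled from them at 12 weeks. All populations named there share that reporter allele and that treatment, while NK cells are given only in the sample labels, and the sources used here give no age. The labels leave unsaid whether replicates are separate mice, and the p-values therefore reflect the spread between the arrays alone, which may be technical. Apart from Flt3 in the names of the CMP populations, the labels do not say which surface proteins defined each sort. A SLAM protein may therefore have been one of them, and a difference in a gene used as a gate would not be a finding between those populations.

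SLAM family receptors are immunoglobulin-like proteins on the surface of blood cells. Most of them bind a copy of themselves on a neighbouring cell, and Slamf1, Slamf6, Slamf7 and Ly9 signal through tyrosine motifs in their tails. These motifs recruit the small adaptors SAP (Sh2d1a) or EAT-2 (Sh2d1b1), and not every receptor uses both. Cd48 differs, because it is held in the membrane by a lipid anchor, has no signalling tail, and is the ligand of Cd244a (2B4) and of Cd2. In mouse marrow, Slamf1 protein (CD150) on cells that lack CD48 protein is a known mark of stem cells, while Slamf6 and Ly9 are known from T, B and NK cells and Slamf7 (CRACC) from NK cells, B cells and myeloid cells.

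The start regions of Slamf1, Slamf6 and Slamf7 are shown because these are the members with the sharpest steps between populations described below, and because Slamf6 and Slamf7 were both high in CLP and NK. They come from a set of RefSeq start regions on build GRCm38.p6, which held 4 of the 5 members and lacked Ly9. The regions each hold 250 bases before and 50 after the gene's start. They lie at chr1:171766882-171767181 on the + strand for Slamf1, chr1:171917212-171917511 on the + strand for Slamf6, and chr1:171648950-171649249 on the - strand for Slamf7. Capitals mark matches to 6 short motifs on either strand. Ets factors were searched by their core AGGAAG. The core of Runx factors was searched as TGTGGT. The E-box of basic helix-loop-helix factors was searched as CAGNTG, where N is any base. Gata factors were searched by the core AGATAA. For Tcf factors such as Lef1 the letters were CTTTGA in this search. The T-box core of Eomes and its relatives was searched as AGGTGT, and its single match in Slamf1 overlaps an E-box match.
Slamf1: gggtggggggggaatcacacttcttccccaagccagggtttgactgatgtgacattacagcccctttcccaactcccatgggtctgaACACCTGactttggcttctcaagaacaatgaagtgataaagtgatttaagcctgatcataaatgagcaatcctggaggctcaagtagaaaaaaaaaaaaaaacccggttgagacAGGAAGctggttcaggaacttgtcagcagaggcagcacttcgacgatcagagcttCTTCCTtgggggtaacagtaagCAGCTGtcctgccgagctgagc
Slamf6: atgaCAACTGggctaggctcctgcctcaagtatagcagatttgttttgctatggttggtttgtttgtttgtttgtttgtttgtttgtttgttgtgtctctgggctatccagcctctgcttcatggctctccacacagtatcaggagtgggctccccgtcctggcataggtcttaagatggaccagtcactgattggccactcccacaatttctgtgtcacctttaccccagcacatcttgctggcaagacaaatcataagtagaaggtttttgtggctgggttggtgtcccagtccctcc
Slamf7: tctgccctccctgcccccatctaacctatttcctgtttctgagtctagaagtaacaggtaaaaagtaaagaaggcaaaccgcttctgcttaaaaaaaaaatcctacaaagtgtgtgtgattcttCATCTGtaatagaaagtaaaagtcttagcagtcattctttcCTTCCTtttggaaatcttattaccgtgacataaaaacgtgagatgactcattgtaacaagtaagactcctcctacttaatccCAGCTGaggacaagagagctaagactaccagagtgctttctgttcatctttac
Slamf1 held 2 E-box, 2 Ets and 1 T-box matches, Slamf7 held 2 E-box and 1 Ets matches, and Slamf6 held 1 E-box match and none of the other 5 motifs. Over 32851 such windows, 51.4% held an E-box, 35.4% an Ets core, 16.8% a Runx core, 16.0% a Tcf core, 13.7% a T-box core and 11.2% a Gata core, so the E-box shared by the 3 windows is a common match. A match describes these letters only and is not a measured binding site. The window of Slamf6 held 1 CG dinucleotide, Slamf7 3 and Slamf1 4, against a median of 7 over all windows. The window of Cd48, which is not printed, held 7, with 1 Ets, 1 Runx and 1 Tcf match and no E-box.

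Values are log2 expression values per gene, and the median of all values was 4.54, with array medians between 4.45 and 4.62. A mean below 4.54 is dim on these arrays, and a change with 1 side in that range has no reliable size. Across genes, replicates of the same population correlated at 0.9734 to 0.9901. Neutrophil markers averaged 9.54 to 11.65 over the 13 marrow arrays, with all 8 genes above the median in every marrow population, against 4.21 to 4.95 over the 4 thymus arrays. Comparisons of ETP with LMPP or EILP cross from thymus to marrow, so population and tissue cannot be told apart in them for any gene. B lineage markers averaged 7.0 to 7.58 in CLP, against 4.36 to 5.15 in the other 15 arrays. Y-linked transcripts averaged 7.03 to 7.66 in the CLP, EILP and DN3 arrays and 3.03 to 3.38 in the other 12. In comparisons that cross this split, the population and the split cannot be told apart for any gene. Those are EILP against LMPP, NK or ETP, CLP against LMPP or NK, and DN3 against ETP. Defining markers were present for the labels checked: all 10 NK markers were above the median in NK, all 9 T lineage markers in DN3, all 9 stem cell markers in HSC and all 7 innate lymphoid progenitor markers in EILP. Those 7 averaged 6.55 in EILP and 6.95 to 7.09 in NK, where all 7 also passed, so they do not set EILP apart from NK. HSC and ETP had 6 of the 7 above the median. Tcf7, the 1 other gene of that list, was not analysed here. In bulk samples such as these, fewer cells that express a gene and less of its RNA per cell cannot be told apart.

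All 5 members differed among the 9 populations by limma's moderated F test (Benjamini-Hochberg adjusted p from 1.9e-08 for Slamf6 to 4.2e-05 for Ly9), where 22.7% of all genes did. Their spread between the highest and lowest population mean was 4.96 on the log2 scale for Slamf7, 4.76 for Slamf6, 2.50 for Slamf1, 2.35 for Ly9 and 2.03 for Cd48. The highest mean was in HSC for Slamf1, in DN3 for Slamf6, in NK for Slamf7 and Ly9, and in ETP for Cd48, and that of Slamf7 in NK was within 2 SE of CLP. HSC was the lowest population for Slamf6, Cd48 and Ly9, CLP was the lowest for Slamf1, and DN3 for Slamf7. Except for Slamf7, each lowest mean was within 2 SE of the population next above it.

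**Figure D1:**
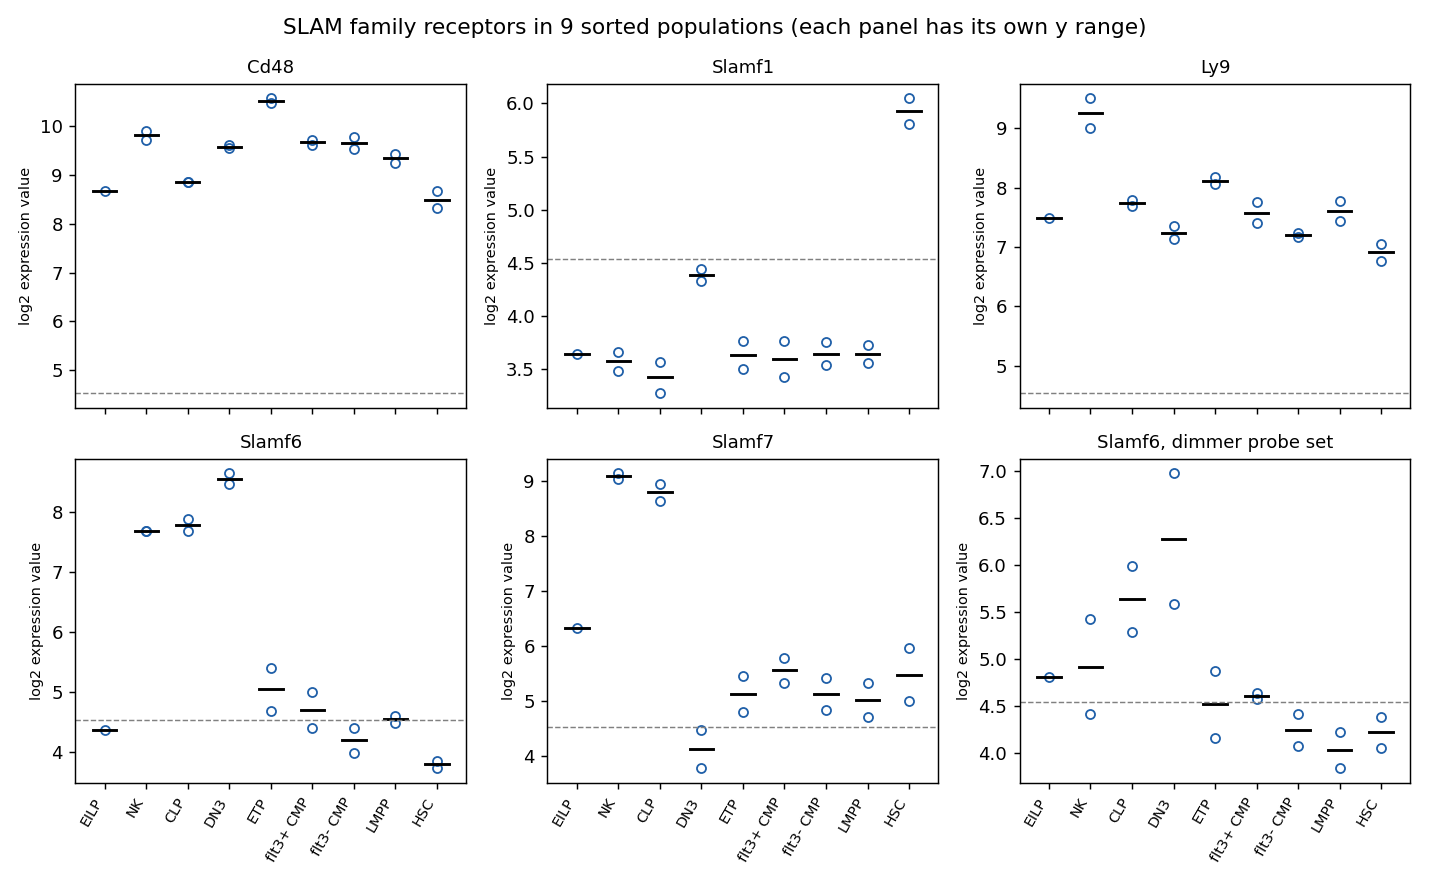
Log2 expression value (y axis) of each SLAM receptor in every array (circles) of the 9 populations (x axis), with the population mean as a bar and the median of all values, 4.54, as a dashed line; the last panel is the dimmer Slamf6 probe set. Slamf1 rises above the dashed line in HSC only, Slamf6 is high in NK, CLP and DN3, and Slamf7 is high in NK and CLP.

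In pairs of populations, tested with limma across all genes at an adjusted p under 0.05, 23 of 65 member values passed, 12 higher and 11 lower. EILP had 4 of 5 members lower than NK and 0 higher, where 3.48% of all genes differed (1.91% lower and 1.57% higher). Against CLP, 2 were lower in EILP, Slamf6 and Slamf7, where 0.365% of genes differed (0.325% lower and 0.0406% higher). Cd48 alone was lower in EILP than in ETP, with 8.19% of genes called (3.4% lower and 4.79% higher). No member passed in EILP against LMPP by limma (0 of 5, with 2 at an unadjusted p under 0.05), where 3.9% of genes did (2.1% higher and 1.79% lower). These 4 comparisons share the EILP array.

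CLP had 2 members higher than LMPP, Slamf6 and Slamf7, with 5.96% of all genes called (3.75% higher and 2.2% lower). NK had 3 members higher than LMPP, with 6.72% of genes called (3.54% higher and 3.18% lower). The median member was 1.65 higher in NK than in LMPP on the log2 scale, beside 0.05 for the median of all genes. Against CLP, NK had 2 members higher, with 6.39% of genes called (3.22% higher and 3.17% lower). DN3 differed from ETP in 4 members, 2 higher and 2 lower, with 8.73% of genes called (5.2% higher and 3.53% lower).

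Among the stem and myeloid populations, LMPP differed from HSC in 2 members, Cd48 higher and Slamf1 lower, where 0.6% of all genes were called (0.275% higher and 0.325% lower). In flt3- CMP against HSC, Cd48 was again higher and Slamf1 lower, where 4.22% were called (2.4% higher and 1.82% lower), and these comparisons share the HSC arrays. In ETP against LMPP, Cd48 alone was called, higher in ETP, with 3.42% of genes called (1.02% higher and 2.4% lower). Neither flt3+ CMP against LMPP (0.442% of genes called) nor flt3+ CMP against flt3- CMP (0.108%) called a member by limma, with 0 of 5 also at an unadjusted p under 0.05.

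**Figure D2:**
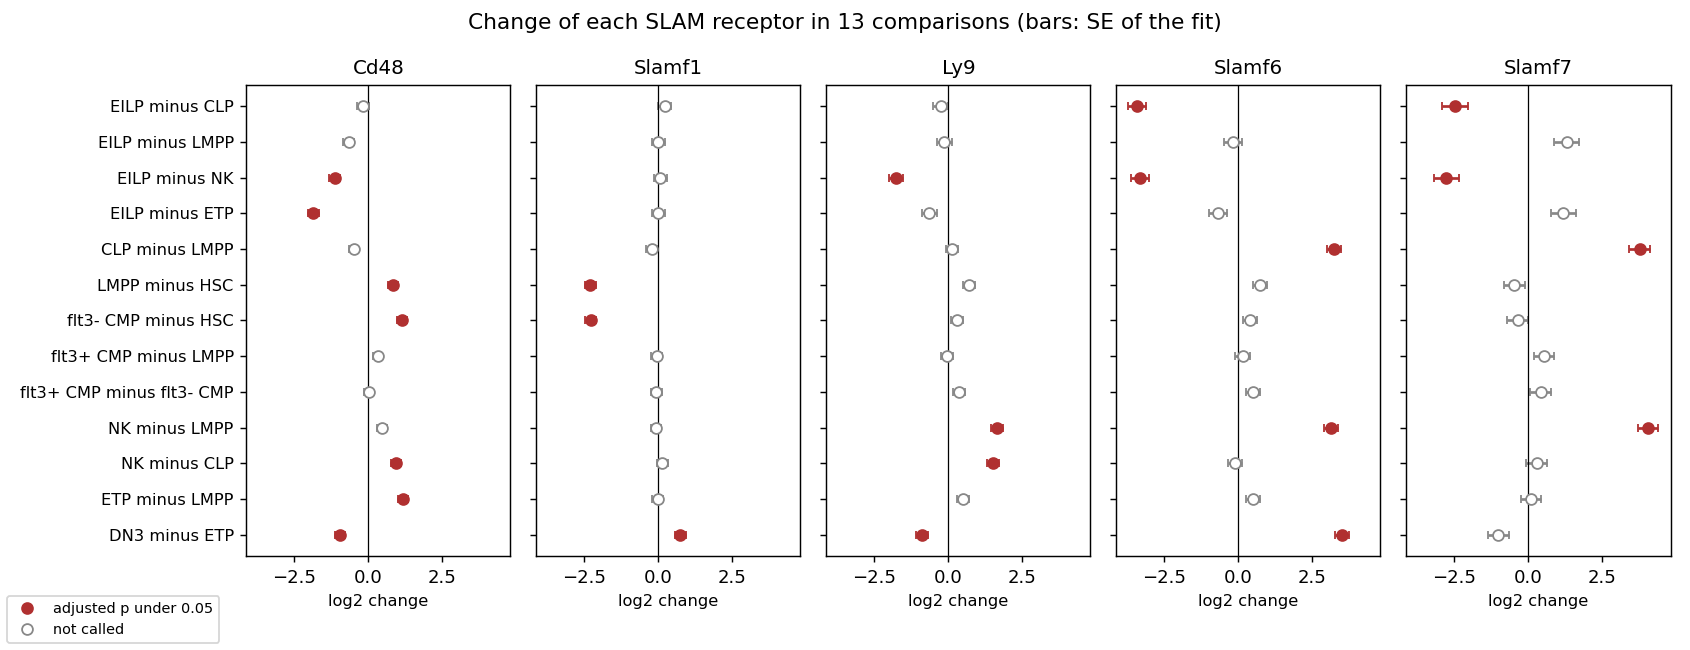
Log2 change (x axis) of each SLAM receptor in the 13 comparisons (rows), with the SE of the fit as a bar; filled red points passed an adjusted p under 0.05 and open grey points did not. Slamf1 is red in the comparisons with HSC and in DN3 minus ETP only, and Slamf6 and Slamf7 show the widest changes, up to 4.06 for Slamf7 in NK minus LMPP.

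Cd48, the lipid-anchored ligand of Cd244a and Cd2, was above the median of all values in every array. Its range of 2.03 between the highest and lowest population was the smallest of the 5 members and larger than that of 94.3% of genes. It was at 10.47 and 10.56 in ETP, 9.71 and 9.90 in NK, 9.71 and 9.62 in flt3+ CMP, 9.52 and 9.77 in flt3- CMP, 9.55 and 9.61 in DN3, 9.43 and 9.24 in LMPP, 8.85 and 8.85 in CLP, 8.68 in EILP, and 8.31 and 8.67 in HSC. The ETP arrays lay above all others, NK to LMPP formed a middle group, and CLP, EILP and HSC were lowest. In that order, NK and flt3+ CMP, flt3+ and flt3- CMP, flt3- CMP and DN3, DN3 and LMPP, CLP and EILP, and EILP and HSC each differed by less than 2 SE.

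Cd48 averaged 9.33 ± 0.14 in LMPP and 8.49 ± 0.26 in HSC (SD, n = 2 each), a rise of 0.84 ± 0.16 (log2, SE, limma adjusted p = 0.033). That call was lost without HSC replicate 1 (0.66, adjusted p = 0.35), without LMPP replicate 1 (0.75, adjusted p = 0.31) and without LMPP replicate 2 (0.94, adjusted p = 0.093). It was also lost with only the 12 arrays of low Y-linked transcripts in the fit (adjusted p = 0.089). In flt3- CMP, Cd48 averaged 9.64 ± 0.18, against the same HSC value, and rose by 1.15 ± 0.16 (adjusted p = 0.0018), a call kept without each replicate in turn. Neutrophil markers averaged 9.91 to 9.93 in flt3- CMP, 10.57 to 10.73 in LMPP and 10.61 to 10.77 in HSC, and their part in the Cd48 differences was not tested.

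On the lymphoid side, Cd48 in ETP (10.52 ± 0.06) was 1.18 ± 0.16 above LMPP (adjusted p = 0.00058). Neutrophil markers averaged 4.74 to 4.95 in ETP, from thymus, and 10.57 to 10.73 in LMPP and 11.65 in EILP, from marrow. Their part in the Cd48 differences with ETP was not tested. In DN3, at 9.58 ± 0.04, Cd48 fell by 0.94 ± 0.16 against ETP (adjusted p = 0.002). In EILP, at 8.68, it was 1.84 ± 0.20 below ETP (adjusted p = 3.8e-05) and 1.13 ± 0.20 below NK (adjusted p = 0.0054), of which the NK call was lost with only the 2 populations in the fit (adjusted p = 0.21). NK, at 9.81 ± 0.14, was 0.96 ± 0.16 above CLP, at 8.85 (adjusted p = 0.0027). The values of CLP minus LMPP, -0.48 ± 0.16 (adjusted p = 0.11), and EILP minus LMPP, -0.66 ± 0.20 (adjusted p = 0.093), did not pass, and with quantile normalization the CLP value did (-0.62, adjusted p = 0.045).

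Slamf1, the self-binding receptor CD150, was above the median of all values in HSC alone. Its HSC arrays read 6.05 and 5.81, and the next population was DN3 at 4.45 and 4.33. The other 13 arrays lay between 3.28 (CLP replicate 2) and 3.77 (flt3+ CMP replicate 1 and ETP replicate 1), and their neighbours in rank all differed by less than 2 SE. HSC and DN3 each stood clear of the population below them, with no overlap between arrays.

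Slamf1 averaged 3.64 ± 0.12 in LMPP and 5.93 ± 0.17 in HSC (SD, n = 2 each), a log2 change of -2.28 ± 0.18 (SE, limma adjusted p = 3e-05). The flt3- CMP arrays, at 3.54 and 3.76, gave a like change against HSC, -2.28 ± 0.18 (adjusted p = 3.1e-05). Both calls held without each replicate in turn and with only the 2 populations in the fit. LMPP and flt3- CMP lie below the median, so the folds, 4.87 and 4.85, are uncertain in size. Stem cell markers averaged 5.93 to 5.99 in LMPP and 6.61 to 7.01 in HSC, and whether Slamf1 follows how many of these cells each pool held was not tested.

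In DN3, Slamf1 was 0.75 ± 0.18 above ETP (4.39 ± 0.08 in DN3 and 3.63 ± 0.19 in ETP, adjusted p = 0.018), with both means below the median. The call did not hold without ETP replicate 2 (0.62, adjusted p = 0.13), DN3 replicate 1 (0.69, adjusted p = 0.11) or DN3 replicate 2 (0.81, adjusted p = 0.063). EILP, at 3.65, differed from LMPP by 0.00 ± 0.22, with a 95% interval of -0.47 to 0.48.

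Ly9, a self-binding receptor also called CD229, was above the median in all 17 arrays and highest in NK, at 9.0 and 9.50. ETP followed at 8.06 and 8.17. The remaining populations ran from CLP at 7.79 and 7.68, LMPP at 7.44 and 7.77, flt3+ CMP at 7.75 and 7.40, EILP at 7.49, DN3 at 7.35 and 7.13, and flt3- CMP at 7.17 and 7.24 to HSC at 7.05 and 6.77. Only NK stood more than 2 SE above the population next in rank.

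Ly9 averaged 9.25 ± 0.36 in NK and 7.61 ± 0.24 in LMPP (SD, n = 2 each), 1.65 ± 0.20 higher in NK (log2, SE, adjusted p = 0.00014), and NK was 1.51 ± 0.20 above CLP (adjusted p = 0.00037). EILP lay 1.77 ± 0.24 below NK (adjusted p = 8e-04), a call lost with only the 2 populations in the fit (adjusted p = 0.12). Against CLP, EILP differed by -0.25 ± 0.24, with a 95% interval of -0.78 to 0.27. NK markers averaged 4.83 in EILP, 9.33 to 9.50 in NK, 4.50 to 4.54 in CLP and 4.10 to 4.38 in LMPP. Whether Ly9 in those populations follows a few cells of NK type was not tested.

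In thymus, Ly9 fell to 7.24 ± 0.16 in DN3, against 8.11 ± 0.08 in ETP, a change of -0.87 ± 0.20 (adjusted p = 0.013). Without ETP replicate 2 (-0.82, adjusted p = 0.076) or DN3 replicate 2 (-0.76, adjusted p = 0.11) the call was lost. ETP was 0.51 ± 0.20 above LMPP, which did not pass the test (adjusted p = 0.25).

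Slamf6, a self-binding receptor also called Ly108, was high in 3 populations on its brighter probe set. It was at 8.48 and 8.65 in DN3, 7.89 and 7.69 in CLP, and 7.69 and 7.69 in NK. The arrays of the other 6 populations reached at most 5.41, with ETP at 5.41 and 4.69, flt3+ CMP at 4.41 and 5.0, LMPP at 4.61 and 4.49, EILP at 4.38, flt3- CMP at 4.41 and 3.98, and HSC at 3.86 and 3.74. No array of the high populations overlapped one of the low populations, and within the low populations each differed from the next in rank by less than 2 SE. The ends of that low group, ETP at 5.05 ± 0.51 and HSC at 3.80 ± 0.09 (SD, n = 2 each), lay further apart than this.

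EILP, at 4.38, was 3.41 ± 0.30 below CLP, at 7.79 ± 0.14 (log2, SE, n = 1 against 2, adjusted p = 0.00012), and 3.31 ± 0.30 below NK, at 7.69 (adjusted p = 1.6e-05). With only EILP and CLP in the fit, the adjusted p against CLP was 0.053. EILP differed from LMPP by -0.17 ± 0.30, with a 95% interval of -0.81 to 0.47. CLP rose by 3.24 ± 0.24 over LMPP (adjusted p = 3.3e-06), a 9.44-fold change, and NK by 3.14 ± 0.24 (adjusted p = 1.9e-06). EILP lies below the median of all values and LMPP, at 4.55, close to it, so the sizes of these EILP and LMPP differences are uncertain. NK and CLP differed by -0.10 ± 0.24, with a 95% interval of -0.62 to 0.42. DN3 rose by 3.51 ± 0.24 over ETP, at 8.56 ± 0.12 in DN3 and 5.05 ± 0.51 in ETP (adjusted p = 6e-07).

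Slamf6 has a further, dimmer probe set, which agreed for CLP and DN3 and not for NK. It read 6.97 and 5.59 in DN3, 5.29 and 5.99 in CLP, 5.42 and 4.42 in NK, 4.81 in EILP, and at most 4.87 in the other populations. In its place, DN3 minus ETP was 1.76 ± 0.42 (adjusted p = 0.019) and CLP minus LMPP 1.61 ± 0.42 (adjusted p = 0.039) among all 23521 probe sets. NK minus LMPP was 0.89 ± 0.42 (adjusted p = 0.26), EILP minus CLP -0.83 ± 0.52 (adjusted p = 0.74) and EILP minus NK -0.11 ± 0.52 (adjusted p = 0.96). The NK value and the EILP differences of Slamf6 therefore rest on its brighter probe set.

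Slamf7, the receptor CRACC, was high in NK at 9.03 and 9.14 and in CLP at 8.64 and 8.94. EILP, at 6.33, came next and above every array of the remaining populations. These were flt3+ CMP at 5.34 and 5.79, HSC at 5.0 and 5.96, flt3- CMP at 5.42 and 4.85, ETP at 5.45 and 4.80, LMPP at 4.71 and 5.33, and DN3 at 4.47 and 3.78. Replicates of Slamf7 lay further apart than those of the other members, with a pooled SD of 0.42, and EILP and flt3+ CMP differed by less than 2 SE.

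CLP averaged 8.79 ± 0.21 and LMPP 5.02 ± 0.44 (SD, n = 2 each), and Slamf7 rose in CLP by 3.77 ± 0.35 (log2, SE, adjusted p = 2.5e-05), a 13.7-fold change. In NK, at 9.09 ± 0.08, it was 4.06 ± 0.35 above LMPP (adjusted p = 5.6e-06), the widest change of any member in the 13 comparisons. NK and CLP differed by 0.29 ± 0.35, with a 95% interval of -0.46 to 1.04. DN3, at 4.13 ± 0.48, was 1.00 ± 0.35 below ETP, at 5.13 ± 0.46, which did not pass the test (adjusted p = 0.10).

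EILP minus NK was -2.76 ± 0.43 for Slamf7 (n = 1 against 2, adjusted p = 0.0021), and this held in each alternative run. It was 2.47 ± 0.43 below CLP (adjusted p = 0.026), but that call was lost without CLP replicate 1 (-2.62, adjusted p = 0.069), without CLP replicate 2 (-2.32, adjusted p = 0.12) and with quantile normalization (-2.33, adjusted p = 0.052). In a fit of the arrays with high Y-linked transcripts alone, the adjusted p was 0.08. Above LMPP, EILP stood at 1.31 ± 0.43 (adjusted p = 0.13), and above ETP at 1.20 ± 0.43 (adjusted p = 0.12).

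Marker lists named for other cell types read as follows beside the Slamf6 and Slamf7 values. A list average does not show that such cells were present, since the labelled cells may express some of its genes. B lineage markers averaged 4.44 in EILP and 7.0 to 7.58 in CLP, where Ebf1 was at 7.30 and Igll1 at 9.32. In NK they averaged 4.90 to 5.15, with 8 of 9 above the median. T lineage markers averaged 6.20 to 6.40 in NK, 4.86 in EILP and 4.75 in both CLP arrays. Of these 9, 7 were above the median in NK, where Cd3e and Cd5 were below it, 6 in EILP and 5 in CLP. In NK, Thy1, Cd3d, Lat and Cd3g were at 7.67 to 9.46, and Il2ra, Ptcra, Bcl11b, Cd3e and Cd5 at 4.46 to 4.83. Plasma and mature B cell markers averaged 4.84 in EILP and 5.39 to 5.43 in CLP, and in both 4 of 7 were above the median. Of these, Jchain was at 6.35 in EILP and 7.0 in CLP, against at most 3.89 in the other populations, and Sdc1 was at 5.39 in EILP and 7.46 in CLP. Ms4a1, Cr2 and Fcer2a were below the median in both. Macrophage markers averaged 5.36 in EILP, 4.90 to 4.92 in NK and 5.06 to 5.12 in CLP. Dendritic cell markers averaged 5.22 in EILP, 5.63 to 5.67 in NK and 5.42 to 5.43 in CLP, and neutrophil markers 11.65, 10.88 to 11.05 and 11.47 to 11.62. Among the dendritic cell markers in NK, Itgax was at 8.03 and Bst2 at 7.25, and Siglech, Ccr7, Zbtb46 and Xcr1 at 3.73 to 5.24. Red cell markers averaged 7.85 in EILP, 7.01 to 7.28 in NK, 7.82 to 7.89 in CLP and 5.45 to 5.56 in LMPP. Myeloid progenitor markers averaged 8.54 in EILP, 7.33 to 7.74 in NK, 8.195 to 8.46 in CLP and 7.33 to 7.48 in LMPP. The part of all these markers in the Slamf6 and Slamf7 differences, and in those of other genes high in NK, was not tested.

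The 5 members lie together on mouse chromosome 1 with Cd244a and Cd84, in the order Cd244a, Ly9, Slamf7, Cd48, Slamf1, Cd84 and Slamf6. All 7 genes of that cluster differed among the populations by the F test, against 2 of the 20 measured protein-coding genes nearest to it, 10 on each side, and 22.7% of all genes. The 7 did not share 1 pattern over the populations. In NK against LMPP, 5 of the 7 were higher and 0 lower, while 0 of the 20 flanking genes were higher and 1 was lower. Of all genes, 3.54% were higher and 3.18% lower in that comparison. In DN3 against ETP, 2 of the 7 were higher and 3 lower, and 0 of the 20 flanking genes changed by this test. Of all genes, 5.2% were higher and 3.53% lower in DN3. Since 5 of the 7 are the members, the cluster counts largely repeat the member calls given above. Slamf9 and Slamf8, which lie further along the chromosome, did not pass the F test (adjusted p = 0.088 and 0.67).

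**Figure D3:**
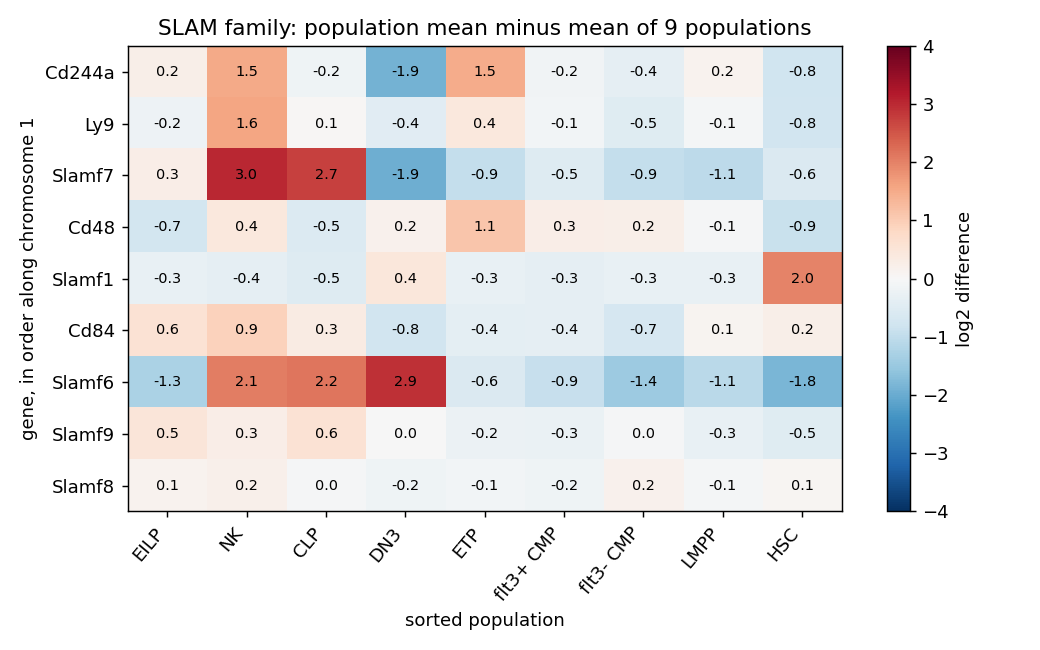
Population mean of each SLAM family gene minus its mean over the 9 populations (log2 difference, colour and printed value), with genes in chromosome order down the page and populations across. Slamf7 and Slamf6 stand 2.1 to 3.0 above their own means in NK and CLP, Slamf6 does so by 2.9 in DN3, and Slamf1 by 2.0 in HSC.

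The other SLAM family receptors gave 2 of 4 calls in NK against LMPP, where 6.72% of all genes were called. Cd244a, which binds Cd48, was at 7.71 and 8.54 in NK and at 6.61 and 6.89 in LMPP, a rise of 1.37 ± 0.35 (adjusted p = 0.03). It was also high in ETP, at 8.36 and 7.80, and in DN3, at 4.27 and 5.14, it was 3.37 ± 0.35 lower than in ETP (adjusted p = 2.6e-05). Cd48 and its receptor Cd244a thus both fell in DN3 against ETP, in a comparison where 3.53% of all genes were lower. Cd84, named although the rule for names does not reach it, ranged from 7.68 in DN3 to 9.35 in NK and was higher in EILP than in ETP by 0.96 ± 0.20 (adjusted p = 0.0072).

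The adaptors that carry the receptors' signal differed from each other in where they were detected. Sh2d1a, which encodes SAP, read 7.36 and 7.31 in NK and 7.64 and 6.84 in DN3, and 3.57 to 4.14 in the other 13 arrays, below the median in each. It rose by 3.51 ± 0.25 in NK over CLP (adjusted p = 9e-07), by 3.51 ± 0.25 in NK over LMPP (adjusted p = 7.7e-07) and by 3.27 ± 0.25 in DN3 over ETP (adjusted p = 1.5e-06). Of the 3 populations with high Slamf6, NK and DN3 thus had high Sh2d1a and CLP, at 3.94 and 3.72, did not.

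Sh2d1b1, which encodes EAT-2, was highest in NK at 6.54 and 7.52, followed by EILP at 5.53, against at most 5.29 elsewhere. NK was 2.35 ± 0.41 above CLP (adjusted p = 0.0034) and 3.38 ± 0.41 above LMPP (adjusted p = 0.00014). Its relative Sh2d1b2 was below the median in all populations. Sh2d1b1 and Sh2d1b2 are close copies, so their probe sets can share signal.

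Cd2, another receptor for Cd48, was at 9.30 and 9.89 in NK and at most 5.45 in any other array. It was 5.25 ± 0.40 lower in EILP than in NK (adjusted p = 3.3e-06), with EILP at 4.34, below the median. Fyn, the kinase that SAP brings to the receptors, was highest in NK at 8.07 and 8.35 and lowest in EILP at 4.99. EILP was 3.21 ± 0.32 below NK (adjusted p = 5.3e-05) and 2.12 ± 0.32 below ETP (adjusted p = 0.00081) in Fyn.

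**Figure D4:**
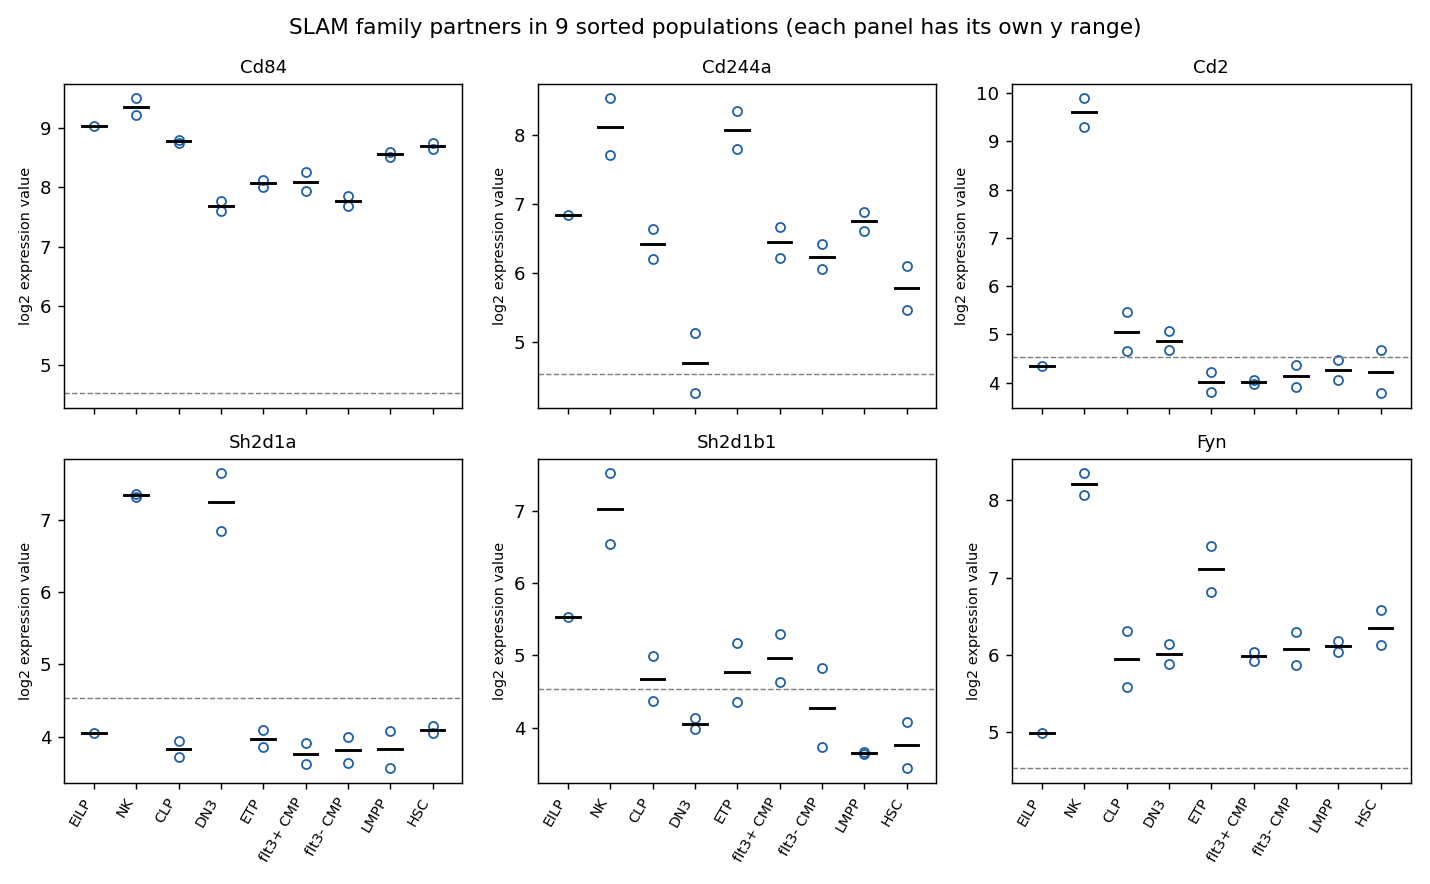
Log2 expression value (y axis) of 6 SLAM partners in every array (circles) of the 9 populations (x axis), with the population mean as a bar and the median of all values, 4.54, as a dashed line. NK arrays are the highest for Cd2, Sh2d1b1 and Fyn, Sh2d1a is high in NK and DN3 only, and Cd244a is high in NK and ETP.

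Counted over the 22 of 23 listed partners that were measured (4 other family receptors, 3 adaptors and 15 signalling partners, with Lck not analysed here), NK against LMPP gave 7 higher and 1 lower, with a median log2 difference of 0.29 beside 0.05 for all genes. NK against CLP also gave 7 higher and 1 lower, with a median of -0.02 beside 0.09 for all genes. Without LMPP replicate 2 and without CLP replicate 1, each of these totals was 5. NK and CLP therefore differed in 36.4% of the partners where 6.39% of all genes did. NK and LMPP also differed in 36.4% of the partners, where 6.72% of all genes did.

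EILP had 4 of 22 lower than NK (Sh2d1a, Cd2, Fyn and the kinase gene Prkcq, at -2.38 ± 0.44 with adjusted p = 0.0073) and 0 higher. Of all genes, 3.48% differed between EILP and NK (1.91% lower and 1.57% higher). Against ETP, EILP had 1 higher, Cd84, and 2 lower, Fyn and the phospholipase gene Plcg1, where 8.19% of all genes were called. Plcg1 was also the 1 partner lower in EILP than in LMPP (-1.63 ± 0.35, adjusted p = 0.018), a call lost without LMPP replicate 2. Against CLP, EILP had 0 of 22 called by limma, with 4 at an unadjusted p under 0.05. Against LMPP 4.55% of the partners were called, where 3.9% of all genes were, and against CLP 0.365% of all genes were called.

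DN3 had 2 of 22 partners higher than ETP, Sh2d1a and Plcg1, and 4 lower, and without DN3 replicate 2 the total was 3. Of all genes, 8.73% were called in that comparison (5.2% higher and 3.53% lower), beside 27.3% of the partners. The 2 phospholipases moved in opposite directions there. Plcg1, the form used by T cell receptors, was at 7.44 and 7.80 in DN3, against 6.61 and 6.48 in ETP, a rise of 1.08 ± 0.28 (adjusted p = 0.03). Plcg2, the form used by B cell receptors, was at 5.32 and 5.30 in DN3, against 7.33 and 7.41 in ETP, a change of -2.06 ± 0.16 (adjusted p = 1.8e-06).

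In the remaining comparisons the share of partners called was 4.55% in CLP against LMPP, where 5.96% of all genes were called. It was 13.6% in flt3- CMP against HSC, where 4.22% of all genes were called. In CLP against LMPP the phosphatase gene Ptpn11 alone was higher (0.94 ± 0.24, adjusted p = 0.03), a call lost without either LMPP replicate. In flt3- CMP against HSC, Inpp5d was higher and Cd84 and Inppl1 were lower, and without any single replicate of the 2 populations the total was 0 or 1 in place of 3. These 4 calls are named after their values were seen. By limma, 0 of 22 passed in LMPP against HSC (6 at an unadjusted p under 0.05), ETP against LMPP (5), flt3+ CMP against LMPP (6) and flt3+ CMP against flt3- CMP (2). Of all genes, 0.6%, 3.42%, 0.442% and 0.108% were called in these comparisons, in that order.

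Over the 9 population means, the members' own patterns were loosely related. Pearson's r was 0.671 for Slamf7 and Ly9, 0.494 for Cd48 and Ly9, 0.433 for Slamf6 and Ly9, and 0.421 for Slamf6 and Slamf7. The 4 pairs with Slamf1 were all negative, from -0.512 with Ly9 to -0.224 with Slamf6. All of these share the same 17 arrays and are given as a description with n = 9.

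Among 18274 other protein-coding genes, the pattern most like Slamf6 over the 9 means was that of Lef1, a transcription factor partner of beta-catenin, at r = 0.973. Lef1 was at 8.80 in DN3, 7.48 in CLP and 7.10 in NK, and at 4.12 to 4.74 in the other 6 populations. Gabpa (0.963) and Secisbp2l (0.944) followed, with Gabpa between 8.54 and 8.82 in all 9 populations. Lef1 was picked for its likeness to Slamf6, so its sharing the Slamf6 split is not a separate finding. The nearest of 18274 genes over only 9 means can lie close without any link between them. Both limits also hold for the genes nearest to the other members, given below.

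Nearest to Slamf1 were Sbf2 (0.964), Armh4 (0.937) and the sialyltransferase gene St3gal1 (0.935). St3gal1 was at 8.28 in HSC and 6.76 to 7.60 elsewhere, with DN3 again in the next place. Armh4 was below the median in every population, and Sbf2 was above it in HSC alone, at 4.95.

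Slamf7 was most like Pde2a, a cyclic nucleotide phosphodiesterase gene (0.972), and Slc35d2 (0.972) and Zfp407 (0.962) came next. Slc35d2 was below the median in every population but NK, where it was at 4.96, and Zfp407 ranged only from 4.70 to 5.34. Pde2a was at 8.34 in CLP, 7.87 in NK, 6.99 in EILP and at most 5.92 in the other populations. Ly9 was most like Klrd1, which encodes CD94 of NK cells (0.976), with Ackr1 (0.967) and Urah (0.964) next, both dim in all 9 populations. Klrd1 was at 11.07 in NK and 6.98 in ETP, the 2 populations that also led for Ly9. The 3 genes nearest to Cd48, Lce3b (0.977), Otog (0.960) and Fam47c (0.958), were all below the median in every population, so their likeness rests on dim values.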

How the data were processed

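RNA of 9 sorted populations was measured on 17 arrays. The deposited log2 values, 1 per probe set for 41345 probe sets, were made by the authors with Affymetrix Expression Console, per the submitters' processing notes. Its version and summary method are not stated in the sources used here, and the log2 unit was read from the values. Tests used the 23521 probe sets that name 1 gene, leaving out 1814 that name several and 16010 unnamed ones, and the brightest probe set of each of 1082 genes with several was kept, leaving 22180 genes.

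limma 3.58.1 (R 4.3.3) fitted 1 mean per population over the 17 arrays (8 residual and 5.33 prior degrees of freedom). Calls in the 13 comparisons were two-sided, at a p under 0.05 after Benjamini-Hochberg adjustment across genes within each, and EILP, with 1 array, was assumed to vary like the others. The number of arrays limits the precision. Members and lists were chosen with earlier results of these data known. Genes named were the 5 members, the 3 protein-coding genes most correlated with each over population means, and partners called with a log2 change of at least 1. The model was tested on simulated data. Same-numbered replicates were not taken as pairs, since none of 28 pairs of populations had replicate differences correlated above 0.1 (highest 0.0892). Alternatives are scaling, filtering, probe set choice, an intensity trend, array weights, a replicate block, fewer arrays and leaving out each replicate.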

Additional observations from a re-analysis of the deposited data

How the results depend on the processing

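Of 23 called member values, 14 kept direction and call in every alternative that gave a value, and none changed direction. Alternatives with the dimmer Slamf6 probe set, or split by Y-linked transcripts, were chosen after seeing the data. For EILP against CLP, 2 members were called, 1 with quantile normalization, 1 with the dimmer Slamf6 probe set, 1 with only CLP, EILP and DN3 arrays, 0 with only the 2 populations in the fit, and 1 without either CLP replicate. With only the 2 populations, EILP against NK had 2 in place of 4, LMPP against HSC 1 in place of 2, and DN3 against ETP 2 in place of 4; fewer arrays then estimate the spread. Leaving out 1 replicate gave 1 to 2 in LMPP against HSC and 2 to 4 in DN3 against ETP. Restricting to genes above the median of all values removed Slamf1, so LMPP against HSC and flt3- CMP against HSC each had 1, and 1 remained in LMPP against HSC with only the 12 arrays of low Y-linked transcripts. The replicate block changed no member call (23 called), and ETP against LMPP then had 2 of 22 partners called in place of 0. In the dim range below 4.54, signal over background limits what can be read. The cause of each lost call was not tested.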
